A study of Homo sapiens with 6 samples.

Results

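The tumour necrosis factor (TNF) receptor superfamily genes described here are TNFRSF1A, TNFRSF1B, TNFRSF10A, TNFRSF10B, TNFRSF10D, TNFRSF11B, TNFRSF12A, TNFRSF19, TNFRSF21 and FAS, 10 of the 58735 genes in the deposited table, taken by gene symbol. They were measured by RNA sequencing in LX-2, an immortalised human hepatic stellate cell line, in 6 libraries. Cells of the first group had been transfected with an siRNA (a short RNA that lowers its target transcript) named for NSUN2, an enzyme that methylates cytosines in RNA, and after 48 hours were given TGF-β1 at 5 ng/ml for 24 hours (3 libraries). The cells they were compared with had the same siRNA and no TGF-β1 (3 libraries, called untreated here). All 6 libraries therefore share the NSUN2 siRNA and a genotype labelled WT, and cells without that siRNA were not analysed here. The comparison asks how these receptor transcripts change when siRNA-treated stellate cells meet a fibrogenic cytokine. The labels call the replicates biological without naming separate cultures, so p-values measure the spread between these libraries. No label gives the time at which untreated cells were harvested. The target of the siRNA is NSUN2 in the sample labels, which were followed, and NAT10 at one point in the design text.

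Receptors of this superfamily bind trimeric ligands through cysteine-rich repeats outside the cell. Some carry a death domain inside the cell, through which they can recruit the adaptors TRADD or FADD and reach caspase 8. Others lack it and bind TRAF adaptors, which lead mainly to NF-kB and MAP kinase signalling. Decoy members bind a ligand without passing on a full signal, because they are secreted or truncated. In the liver, TNF, FAS ligand and TRAIL act on hepatocytes and stellate cells during injury and in the clearing of activated stellate cells.

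With TGF-β1, TNFRSF11B, TNFRSF19, TNFRSF12A, TNFRSF21 and TNFRSF10D rose, and TNFRSF1B, FAS, TNFRSF10B and TNFRSF1A fell. TNFRSF11B, which encodes the secreted decoy osteoprotegerin, was 4.64-fold higher. TNFRSF1B, which encodes TNF receptor 2, was 6.0-fold lower. The other changes were 1.10- to 1.75-fold in either direction. TNFRSF10A, which encodes a TRAIL death receptor, did not pass the test.

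Upstream sequences are shown for the pair of receptors for TNF, which differed in the size of their fall, and for TNFRSF19 and TNFRSF21, which rose. These are the genes with an entry and at least 208 bases before the GENCODE gene start; FAS, the other gene with entries, had 34 bases there, with no CAGAC, and is not shown. They come from RefSeq (GRCh38.p14), which had an entry for 5 of the 10 genes in the table used, and are written 5′ to 3′ in the direction of the gene. Each starts 250 bases before a RefSeq start and ends at that start or at the GENCODE gene start, whichever comes first. The stretches are chr1:12166741-12166990 on the plus strand for TNFRSF1B, chr12:6342115-6342326 on the minus strand for TNFRSF1A, chr13:23570162-23570369 on the plus strand for TNFRSF19 and chr6:47309906-47310155 on the minus strand for TNFRSF21. Capitals mark CAGAC or its reverse complement GTCTG, the core bound by SMAD proteins, the transcription factors that TGF-β receptors activate.
TNFRSF1B: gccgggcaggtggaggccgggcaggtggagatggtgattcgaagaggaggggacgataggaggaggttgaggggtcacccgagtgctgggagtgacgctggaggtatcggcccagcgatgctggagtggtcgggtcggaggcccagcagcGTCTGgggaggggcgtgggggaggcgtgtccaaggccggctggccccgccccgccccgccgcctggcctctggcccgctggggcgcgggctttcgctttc
TNFRSF1A: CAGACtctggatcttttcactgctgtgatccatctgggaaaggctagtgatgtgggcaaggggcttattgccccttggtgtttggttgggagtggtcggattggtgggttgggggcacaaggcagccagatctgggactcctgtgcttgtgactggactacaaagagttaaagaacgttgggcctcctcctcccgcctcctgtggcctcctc
TNFRSF19: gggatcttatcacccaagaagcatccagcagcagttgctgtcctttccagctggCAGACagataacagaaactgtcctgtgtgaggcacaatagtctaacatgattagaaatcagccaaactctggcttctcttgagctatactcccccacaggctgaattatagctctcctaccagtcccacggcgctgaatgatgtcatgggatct
TNFRSF21: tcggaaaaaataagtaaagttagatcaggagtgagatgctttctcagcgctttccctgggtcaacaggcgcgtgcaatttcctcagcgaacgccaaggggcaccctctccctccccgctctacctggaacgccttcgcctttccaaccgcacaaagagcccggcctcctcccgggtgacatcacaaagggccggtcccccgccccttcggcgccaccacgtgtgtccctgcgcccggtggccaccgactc

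CAGAC, or on the other strand GTCTG, occurred once in the stretches of TNFRSF1B (as GTCTG), TNFRSF1A and TNFRSF19 and in neither form in that of TNFRSF21, with the first base of the match 100 bases (TNFRSF1B), 250 bases (TNFRSF1A) and 196 bases (TNFRSF19) before the RefSeq start. TNFRSF19 has a further RefSeq start inside the gene, and 48 of the TNFRSF1B bases shown lie in an annotated exon of the microRNA gene MIR7846. Over both strands, CAGAC was present in 4 of the 8 RefSeq windows of these genes and in 38.0% of all 34943 windows of 250 bases. A FAS window that lies inside the gene was among the 4. The AP-1 motif TGANTCA was present in 1 of the 8, a FAS window, and in 6.59% of all windows. The GC box GGGCGG was present in 6 of the 8 and in 42.55% of all windows. The 8 windows are not independent, because FAS and TNFRSF19 each have several and some FAS windows overlap each other. Matches of different motifs were counted separately even where they share bases, and a match describes the sequence only.

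Libraries held 25828504 to 29978361 counts with TGF-β1 and 26957170 to 30034762 counts untreated. The second principal component, with 12.1% of the variance, set TGF-β1 replicates 1 and 3 far apart (scores of 33.1 and -27.4), and each of the 9 calls among the receptor genes held without either of them. NSUN2 itself had 2541, 2781 and 2638 counts with TGF-β1 and 2546, 2525 and 2364 counts untreated. Normalised to library size, NSUN2 was higher with TGF-β1, at 100.5 ± 3.07 CPM, against 82.9 ± 1.47 CPM untreated (SD, n = 3 each), with no overlap between the groups. Its log2 fold change was 0.28 ± 0.04 (SE; edgeR adjusted p = 1.57e-06), or 0.16 with library totals alone (adjusted p = 0.00314), so the transcript named as the siRNA target differed between the groups compared; its part in the receptor results was not tested. NAT10 had 1670, 1902 and 1832 counts with TGF-β1 and 2044, 2202 and 1763 counts untreated. The extent of the knockdown was not analysed here. Of 13 stellate cell markers, 7 averaged at least 1 FPKM (the deposited value per kilobase of gene length, scaled to library size) in each group, and the summed level of the list was 612 to 677.8 FPKM with TGF-β1 and 354.3 to 363.5 FPKM untreated. Most of that difference was COL1A1, at 395.6 FPKM with TGF-β1 and 140.1 FPKM untreated. Of 9 stellate markers tested, 4 rose (COL1A1, PDGFRB, COL3A1 and VIM) and 4 fell (GFAP, ACTA2, HAND2 and NGFR), with a median log2 fold change of -0.05. That is 88.9% of them called at an edgeR adjusted p under 0.05, against 38.9% of all tested genes. LRAT and DCN of that list were at 0 counts in all 6 libraries. The summed level of 6 hepatocyte markers was 4.30 to 4.62 FPKM with TGF-β1 and 4.66 to 5.45 FPKM untreated. Most of it was SERPINA1, at 4.38 FPKM with TGF-β1 and 4.91 FPKM untreated, with ALB at 0 or 1 counts and TTR and FGB at 0. The 6 leukocyte markers summed to 1.81 to 3.25 FPKM with TGF-β1 and 4.20 to 5.35 FPKM untreated, most of it CD14, with PTPRC at 0 to 4 counts and CD3E at 0. The 5 endothelial markers summed to 7.09 to 7.88 FPKM with TGF-β1 and 3.77 to 4.84 FPKM untreated, most of it TEK, with CDH5 at 0 to 4 counts. The 5 cholangiocyte markers summed to 14.1 to 14.4 FPKM with TGF-β1 and 17.5 to 18.0 FPKM untreated, most of it SOX9, with CFTR at 0. The part of these markers in the receptor results was not tested.

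Of the 10 receptor genes, all of which passed the filter on low counts, 5 rose and 4 fell at an adjusted p under 0.05 (edgeR's quasi-likelihood test, Benjamini-Hochberg adjustment over all tested genes). Among all 17215 genes tested, 38.9% were called, 20.2% as higher and 18.7% as lower. A change of 1 or more in either direction on the log2 scale was seen in 2 of the 10, TNFRSF1B and TNFRSF11B, both called, while 6.51% of all tested genes were called at that size. The groups of 3 libraries did not overlap for any of the 10, nor for 47.4% of all tested genes. The median absolute log2 fold change was 0.42 over the 10 genes and 0.22 over all tested genes, and the median signed value was 0.07 and -0.01. The genes lay between percentiles 34.8 and 96.7 of the tested genes by level, and were chosen with earlier results of these data known, so the share called is a description. With library totals alone as the scaling, the median over all genes shifted by -0.12 on the log2 scale and 27.4% of calls were higher, against 51.8% with TMM factors; the 5 rises and 4 falls among the receptors held there, and TNFRSF10A joined the falls.

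**Figure D1:**
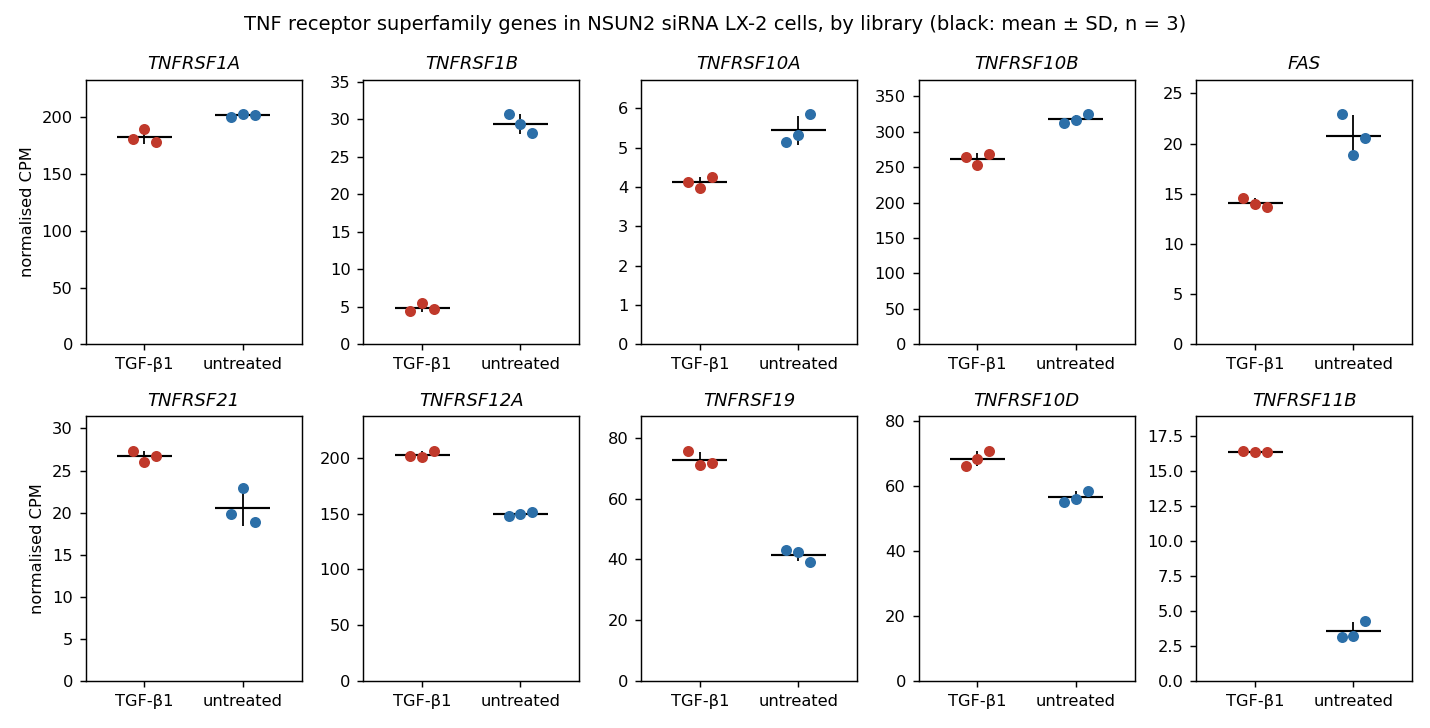
Each panel shows one gene's counts normalised to library size (CPM) on a linear axis from 0, with 3 TGF-β1 libraries in red on the left and 3 untreated libraries in blue on the right; black bars are the mean and SD. The groups do not overlap in any panel, and TNFRSF1B and TNFRSF11B show the widest separation.

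TNFRSF1B encodes TNF receptor 2, which lacks a death domain, binds TRAF2 and responds mainly to membrane-bound TNF (ENSG00000028137, chromosome 1, 12167003 to 12209228, plus strand, hg38). It had 110, 159 and 120 counts with TGF-β1 and 959, 893 and 788 counts untreated. As normalised CPM these were 4.45, 5.55 and 4.63 with TGF-β1 and 30.7, 29.3 and 28.1 untreated. Every TGF-β1 library was thus several-fold below every untreated library. Its log2 fold change was -2.58 ± 0.11 (SE, n = 3 in each group; edgeR adjusted p = 9.66e-24). It ranked 53 from the lowest among 17215 tested genes, and 0.929% of them had a larger absolute change. In bulk RNA, fewer cells expressing a gene and less RNA per cell cannot be told apart.

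TNFRSF1A encodes TNF receptor 1, the death domain receptor that binds soluble TNF and recruits TRADD (ENSG00000067182, chromosome 12, 6328757 to 6342114, minus strand). Its level was 180.7, 190.2 and 178.0 CPM with TGF-β1 and 200.8, 202.9 and 202.5 CPM untreated. The gap between the groups was small beside that of TNFRSF1B, and all TGF-β1 values lay below all untreated ones. On the log2 scale the change was -0.14 ± 0.04 (SE; edgeR adjusted p = 0.00115), the smallest among the called receptor genes. With library totals alone it was -0.26. Per length, TNFRSF1B stood at 2.83% ± 0.25 of the TNFRSF1A level with TGF-β1 and at 15.5% ± 0.74 untreated (SD of the FPKM ratio, n = 3 each). The summed FPKM of both TNF receptors was 45.7 ± 1.64 with TGF-β1 and 56.5 ± 0.24 untreated. The ligand gene TNF had 4, 9 and 0 counts with TGF-β1 and 4, 0 and 3 counts untreated, and did not pass the low-count filter.

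TNFRSF10B encodes the TRAIL receptor DR5, a death domain receptor (ENSG00000120889, chromosome 8, 23020133 to 23069179, minus strand). It had the highest CPM of the 10 genes, a value not corrected for gene length. Its values were 263.9, 253.2 and 267.8 CPM with TGF-β1 and 312.4, 317.1 and 324.6 CPM untreated. All TGF-β1 libraries lay below the untreated ones, and the spread within a group was small (CV 2.90% with TGF-β1 and 1.94% untreated). The log2 fold change was -0.28 ± 0.03 (SE; edgeR adjusted p = 2.01e-09).

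TNFRSF10A encodes DR4, the other TRAIL death receptor, and was expressed at a far lower level (ENSG00000104689, chromosome 8, 23190452 to 23225126, minus strand). It had 102, 114 and 110 counts with TGF-β1 and 161, 162 and 164 counts untreated. In CPM these were 4.12, 3.98 and 4.25 with TGF-β1 and 5.15, 5.32 and 5.85 untreated, so the groups did not overlap. Its log2 fold change of -0.40 ± 0.17 (SE) did not pass the test (edgeR adjusted p = 0.0557), and adjusted p ran from 0.0109 to 0.170 over 15 alternative settings. With library totals alone its value was -0.52 (adjusted p = 0.0109). Exons of opposite-strand noncoding genes cover 16.6% of its exonic bases, and those genes had 33 and 35 counts in all 6 libraries.

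TNFRSF10D encodes a decoy receptor for TRAIL with a truncated death domain (ENSG00000173530, chromosome 8, 23135588 to 23164030, minus strand). It moved the other way from TNFRSF10B, with 66.1, 68.4 and 70.8 CPM with TGF-β1 and 55.2, 56.0 and 58.6 CPM untreated. The groups were apart, and the log2 fold change was 0.27 ± 0.05 (SE; edgeR adjusted p = 2.81e-05), or 0.16 with library totals alone. Per length, TNFRSF10D stood at 38.1% ± 1.46 of the TNFRSF10B level with TGF-β1 and at 25.9% ± 0.33 untreated (SD, n = 3 each). The ligand gene TNFSF10 (TRAIL) was measured at 31, 26 and 25 counts with TGF-β1 and 19, 26 and 8 counts untreated, with a log2 fold change of 0.82 ± 0.44 that did not pass the test (edgeR adjusted p = 0.141). TRAIL receptor genes resemble each other in sequence. Of the distinct 50-base stretches in their annotated transcripts, 0.831% for TNFRSF10D, 1.35% for TNFRSF10B and 12.4% for TNFRSF10A also occurred in a transcript of another gene, on either strand. The gene that shared most was the antisense RNA TNFRSF10A-AS1 for TNFRSF10A, AGK for TNFRSF10B and AC107959.2 for TNFRSF10D.

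TNFRSF11B encodes osteoprotegerin, a secreted decoy that binds RANK ligand and TRAIL (ENSG00000164761, chromosome 8, 118923557 to 118952200, minus strand). It had 407, 469 and 424 counts with TGF-β1 and 99, 97 and 120 counts untreated. The normalised values were 16.5, 16.4 and 16.4 CPM with TGF-β1 and 3.17, 3.18 and 4.28 CPM untreated. The TGF-β1 libraries were nearly equal, and the third untreated library stood above the other untreated ones but far below every TGF-β1 library. This gave a log2 fold change of 2.21 ± 0.13 (SE; edgeR adjusted p = 7.48e-18), 148th from the highest of all tested genes.

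The receptor that osteoprotegerin competes with is RANK, encoded by TNFRSF11A. TNFRSF11A fell, with 314, 315 and 301 counts with TGF-β1 and 674, 623 and 554 counts untreated and a log2 fold change of -0.81 ± 0.10 (SE; edgeR adjusted p = 3.54e-09). Per length, TNFRSF11B stood at 445.0% ± 30.8 of TNFRSF11A with TGF-β1 and at 55.1% ± 12.1 untreated (SD, n = 3 each). The order of the pair was therefore opposite in the groups. TNFSF11, the RANK ligand gene, had 0 counts in every library, which allows up to 3 counts or 0.0960 to 0.121 CPM per library, for counting error only.

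TNFRSF12A encodes Fn14, the small receptor for the ligand TWEAK, which binds TRAFs and has no death domain (ENSG00000006327, chromosome 16, 3018445 to 3022383, plus strand). It was at 202.2, 200.9 and 206.4 CPM with TGF-β1 and at 148.4, 149.4 and 152.0 CPM untreated. The libraries of each group lay close together and well away from the other group. Its log2 fold change was 0.44 ± 0.04 (SE; edgeR adjusted p = 7.10e-14). TNFSF12, which encodes TWEAK, was at 11.5 ± 0.33 CPM with TGF-β1 and 14.1 ± 1.19 CPM untreated (SD, n = 3 each). Exons of other genes cover 33.2% of its exonic bases. Its fall of 0.29 on the log2 scale (SE 0.11; edgeR adjusted p = 0.0270) lost its call without untreated replicate 1 (adjusted p = 0.163), TGF-β1 replicate 1 (0.0528) or TGF-β1 replicate 2 (0.0846). Over all settings the adjusted p of the Fn14 gene was at most 8.25e-05 (edgeR, DESeq2 or limma).

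TNFRSF19 encodes TROY, a receptor without a death domain that is known from neural and embryonic tissue (ENSG00000127863, chromosome 13, 23570370 to 23676104, plus strand). Its values were 75.8, 71.2 and 71.7 CPM with TGF-β1 and 43.2, 42.4 and 39.3 CPM untreated. The groups were far apart, with a log2 fold change of 0.81 ± 0.06 (SE; edgeR adjusted p = 3.67e-16). TNFRSF21 encodes DR6, a death domain receptor (ENSG00000146072, chromosome 6, 47231532 to 47309905, minus strand). It was at 27.3, 26.1 and 26.8 CPM with TGF-β1 and at 19.8, 22.9 and 18.9 CPM untreated. The untreated libraries spread more widely than the TGF-β1 ones but stayed below them. The log2 fold change was 0.38 ± 0.08 (SE; edgeR adjusted p = 2.51e-04), so that this death domain gene rose whereas TNFRSF1A, TNFRSF10B and FAS fell.

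FAS encodes the death domain receptor for FAS ligand, the classic trigger of extrinsic apoptosis (ENSG00000026103, chromosome 10, 88990582 to 89015785, plus strand). It had 361, 400 and 354 counts with TGF-β1 and 717, 576 and 576 counts untreated. In CPM these were 13.7 to 14.6 with TGF-β1 and 18.9 to 22.9 untreated. All TGF-β1 libraries lay below the untreated ones, of which replicate 1 was highest. The log2 fold change was -0.56 ± 0.10 (SE; edgeR adjusted p = 4.19e-06), and it stayed between -0.63 and -0.49 when any library was left out. FASLG, the ligand gene, had 0, 0 and 2 counts with TGF-β1 and 2, 0 and 0 counts untreated.

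The FAS gene shares exonic bases with ACTA2, the alpha smooth muscle actin gene on the opposite strand. The shared stretch runs from base 88990960 to 88991339 of chromosome 10 (380 bases, 8.94% of the exonic bases of FAS), within the first exon of ACTA2 and the second exon block of FAS. No source used here says how reads in such bases were counted. In the deposited table, 228 protein-coding genes had all exonic bases shared with exons of same-strand genes and 17 had all shared with opposite-strand genes, and 0 of either set had a count in any of the 6 libraries. Exons of other genes cover 30.1% of the exonic bases of ACTA2, with 516 bases shared with ACTA2-AS1 besides the 380 shared with FAS. ACTA2 had 117, 109 and 112 counts with TGF-β1 and 218, 237 and 188 counts untreated, a log2 fold change of -0.74 ± 0.16 (SE; edgeR adjusted p = 1.71e-04). FAS and ACTA2 were thus both lower with TGF-β1, and the part of the shared bases in either value was not tested.

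**Figure D2:**
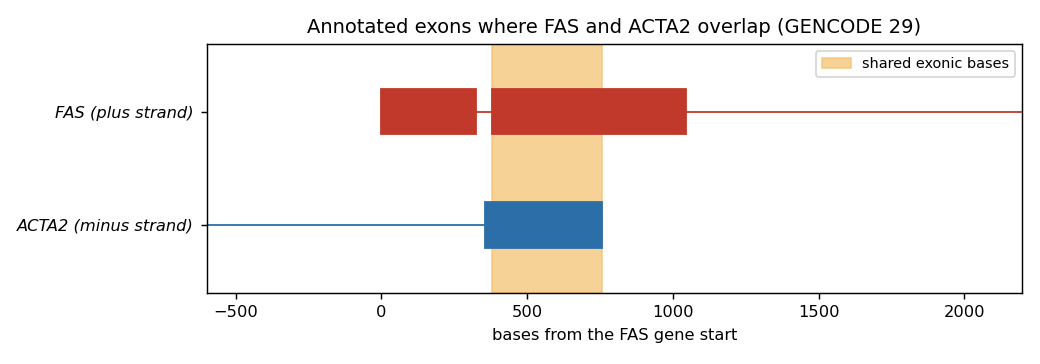
Boxes are annotated exons (all transcripts merged) of FAS above and ACTA2 below, along the distance in bases from the FAS gene start; the shaded band marks the 380 shared exonic bases. The band covers nearly all of the ACTA2 exon shown and part of the second FAS exon block.

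**Figure D3:**
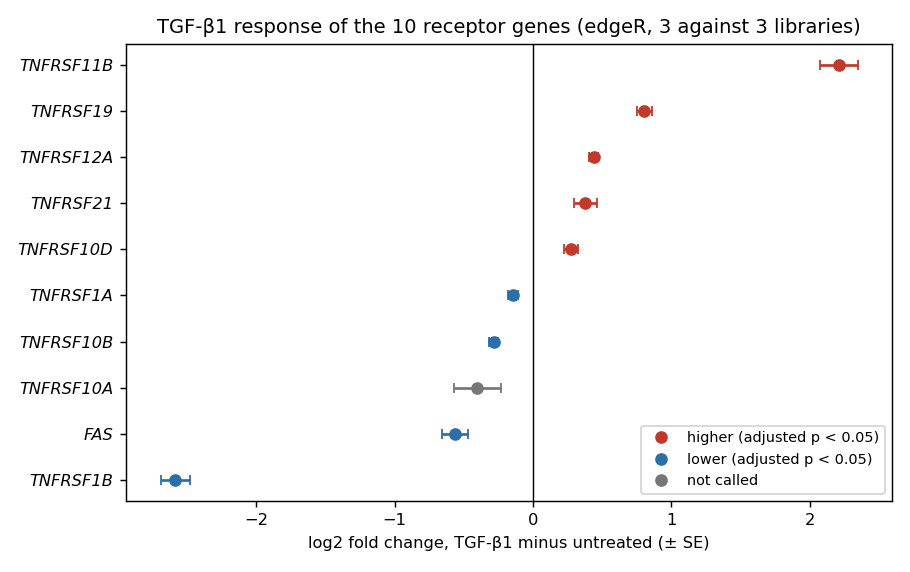
Points are log2 fold changes of TGF-β1 over untreated cells from edgeR and bars are standard errors, 3 libraries in each group; red genes rose, blue genes fell and the grey gene, TNFRSF10A, did not pass an adjusted p of 0.05. TNFRSF1B (-2.58) and TNFRSF11B (2.21) lie far from the other 8, which fall between -0.56 and 0.81.

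Levels of different genes were compared per length, with the deposited FPKM values. In TGF-β1 cells the order was TNFRSF12A (106.9 ± 1.71 FPKM), TNFRSF10B (49.3 ± 1.5), TNFRSF1A (44.4 ± 1.49), TNFRSF10D (18.8 ± 0.68), TNFRSF19 (13.9 ± 0.47), TNFRSF21 (7.23 ± 0.17), TNFRSF11B (5.64 ± 0.02), FAS (3.22 ± 0.10), TNFRSF10A (1.36 ± 0.05) and TNFRSF1B (1.26 ± 0.15) (SD, n = 3). Only the last pair of neighbours overlapped between libraries. Gene lengths include bases shared with exons of other genes, 16.6% for TNFRSF10A and 8.9% for FAS. The effect of these bases on the order of levels was not tested. In untreated cells the first 5 places were the same genes in the same order, with TNFRSF12A at 78.7 ± 0.87 FPKM, TNFRSF10B at 59.8 ± 1.06 and TNFRSF1A at 49.0 ± 0.14. They were followed by TNFRSF1B (7.57 ± 0.34 FPKM), TNFRSF21 (5.54 ± 0.55), FAS (4.75 ± 0.47), TNFRSF10A (1.79 ± 0.12) and TNFRSF11B (1.22 ± 0.22). There, TNFRSF19 overlapped with TNFRSF1B, and TNFRSF21 with FAS. TNFRSF1B was thus in the last place with TGF-β1 and in the sixth untreated, and TNFRSF11B in the seventh with TGF-β1 and the last untreated.

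The summed level of the 10 genes was 251.4, 250.3 and 254.6 FPKM with TGF-β1 and 230.6, 231.1 and 233.7 FPKM untreated. On the log2 scale the group means of this sum differed by 0.12. Scaling by library totals alone shifted the median of all tested genes by -0.12, so this gap depends on the scaling. The share held by the 5 genes with a full death domain (TNFRSF1A, TNFRSF10A, TNFRSF10B, TNFRSF21 and FAS) was 41.9% ± 0.31 with TGF-β1 and 52.1% ± 0.12 untreated (SD, n = 3 each). TNFRSF1B, TNFRSF12A and TNFRSF19, which have none, held 48.4% ± 0.22 with TGF-β1 and 40.6% ± 0.24 untreated. The decoys TNFRSF10D and TNFRSF11B held 9.70% ± 0.21 with TGF-β1 and 7.22% ± 0.24 untreated. TNFRSF12A alone held 42.4% ± 0.30 with TGF-β1 and 34.0% ± 0.13 untreated, so the most abundant member set much of these shares. These classes follow the known structure of each receptor and were not tested as sets.

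**Figure D4:**
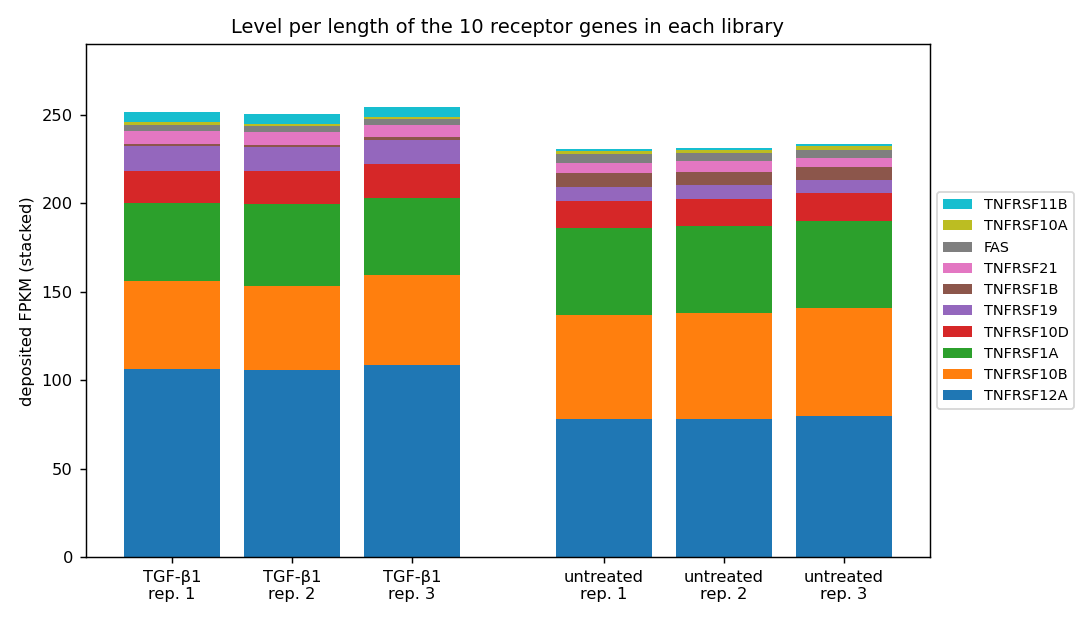
Each bar stacks the deposited FPKM of the 10 genes in one library, TGF-β1 libraries on the left and untreated ones on the right. TNFRSF12A forms the largest part of every bar and is taller with TGF-β1, while TNFRSF1B is visible in the untreated bars and hardly seen in the TGF-β1 ones.

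Other genes of the superfamily were read in the same fit. Of 19 listed, 12 passed the low-count filter, 3 rose and 7 fell, with a median log2 fold change of -0.36, against -0.01 over all tested genes. That is 83.3% of the tested genes of the list called, against 38.9% of all tested genes. CD40, a costimulatory receptor, rose by 0.53 ± 0.05 (SE; edgeR adjusted p = 1.61e-11), RELT by 0.29 (not called by limma on log2(FPKM + 1) with no filter, adjusted p = 0.068) and TNFRSF25, the receptor DR3, by 0.29. The call for TNFRSF25 (edgeR adjusted p = 0.0386) was lost without untreated replicate 1 or 3 (adjusted p = 0.179 and 0.0862), without TGF-β1 replicate 1 or 2 (0.242 and 0.0655) and with library totals alone (0.237). EDA2R, the receptor for ectodysplasin A2, had the largest fall, with 15.7 ± 1.36 CPM with TGF-β1 and 33.8 ± 2.16 CPM untreated (SD, n = 3 each; log2 fold change -1.11 ± 0.08, edgeR adjusted p = 8.50e-15). TNFRSF14 (HVEM) had a log2 fold change of -0.88 ± 0.27 (edgeR adjusted p = 0.00695), a call not made by limma on log2(FPKM + 1) with no filter (adjusted p = 0.214), and TNFRSF13C, the receptor for BAFF, one of -0.98 ± 0.39 (SE) at only 0.68 CPM with TGF-β1 and 1.36 CPM untreated. The call for TNFRSF13C (edgeR adjusted p = 0.0388) was lost without untreated replicate 1 or 3 (adjusted p = 0.10 for each) or TGF-β1 replicate 1 or 3 (0.126 and 0.119). The falls of 7 genes also took in RANK, NGFR (-0.73), TNFRSF9, known as 4-1BB (-0.36), and LTBR, the lymphotoxin beta receptor (-0.11). The call for LTBR (edgeR adjusted p = 0.0460) was lost without untreated replicate 2 (adjusted p = 0.235) or TGF-β1 replicate 1 or 3 (0.0958 and 0.273). Exons of other genes cover 27.1% of the exonic bases of NGFR. CD27 and TNFRSF8 were tested and not called. EDAR, TNFRSF4, TNFRSF10C, TNFRSF13B, TNFRSF17 and TNFRSF18 had 0 to 17 counts per library. TNFRSF6B, a decoy for FAS ligand, was listed at 0 in every library, and 100% of its exonic bases are shared with other genes.

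Ligand genes were mostly low. Of 18, 11 were tested, 1 rose and 2 fell (27.3% called, against 38.9% of all tested genes), with a median of -0.13. TNFSF15, which encodes the DR3 ligand TL1A, rose, with 7.88 ± 0.20 CPM with TGF-β1 and 1.64 ± 0.22 CPM untreated (SD, n = 3 each; log2 fold change 2.26 ± 0.19, edgeR adjusted p = 1.18e-13). TNFSF4, which encodes OX40 ligand, fell by 0.73 on the log2 scale (SE 0.07; edgeR adjusted p = 4.50e-12), with 26.5 ± 1.6 CPM with TGF-β1 and 44.1 ± 0.91 CPM untreated. The other fall was that of TWEAK. DR3, the receptor of TL1A, is the gene TNFRSF25 described above, and TNFRSF4, the OX40 receptor gene, had 0 to 6 counts.

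Inside the cell, 11 of 25 adaptor, TRAF and ubiquitin genes rose and 7 fell (72.0% called, against 38.9% of all tested genes), with a median of 0.10. The median absolute log2 fold change was 0.22 in this list and 0.22 over all tested genes. The part of expression level in the share called was not tested. TRAF5 rose by 0.66 ± 0.08 and TRAF3 by 0.36 ± 0.04 (SE). MAP3K5, a stress kinase also called ASK1, fell by 1.19 on the log2 scale (SE 0.13), and BIRC3, the ubiquitin ligase cIAP2, by 0.92 (SE 0.07). BIRC3 was at 25.1 ± 1.42 CPM with TGF-β1 and 47.5 ± 2.94 CPM untreated. The adaptor genes TRADD and FADD were tested and not called, with log2 fold changes of 0.00 ± 0.08 and 0.15 ± 0.08, and exons of other genes cover 54.9% of those of FADD. Limma on genes with a mean FPKM of at least 0.5 called FADD as higher (adjusted p = 0.0499 at a pseudocount of 1 and 0.0491 at 0.1). Library totals alone gave 7 rises in this list.

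The death-inducing complex and caspases gave 1 rise, 1 fall and 9 not called among 11 tested (18.2% called, against 38.9% of all tested genes). XIAP, a caspase inhibitor, rose by 0.23 ± 0.05 (SE; edgeR adjusted p = 6.78e-04), a call lost with library totals alone (adjusted p = 0.109). CFLAR, the FLIP inhibitor of caspase 8, fell by 0.15 on the log2 scale (SE 0.05; edgeR adjusted p = 0.0237). It missed the threshold without untreated replicate 2 (adjusted p = 0.0723), TGF-β1 replicate 1 (0.0947) or TGF-β1 replicate 3 (0.155). CASP8 itself had 1385, 1523 and 1375 counts with TGF-β1 and 1773, 1753 and 1534 counts untreated, a log2 fold change of -0.06 ± 0.05 that was not called (edgeR adjusted p = 0.425); with library totals alone it was -0.18 (adjusted p = 0.00666), and the list then gave 0 rises and 4 falls.

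Of 13 NF-kB subunit, inhibitor and IKK genes, 6 rose and 3 fell (69.2% called, against 38.9% of all tested genes), with a median of 0.24. The subunit genes NFKB1 (0.47 ± 0.05) and RELB (0.40 ± 0.05) rose (log2 fold change ± SE). The falls were those of BCL3 (-0.80 ± 0.07), which encodes a nuclear IkB protein, IKBKB (-0.62 ± 0.05), which encodes the kinase IKKβ, and NFKBIA (-0.30 ± 0.05), which encodes IkBα, the inhibitor that holds NF-kB in the cytoplasm.

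**Figure D5:**
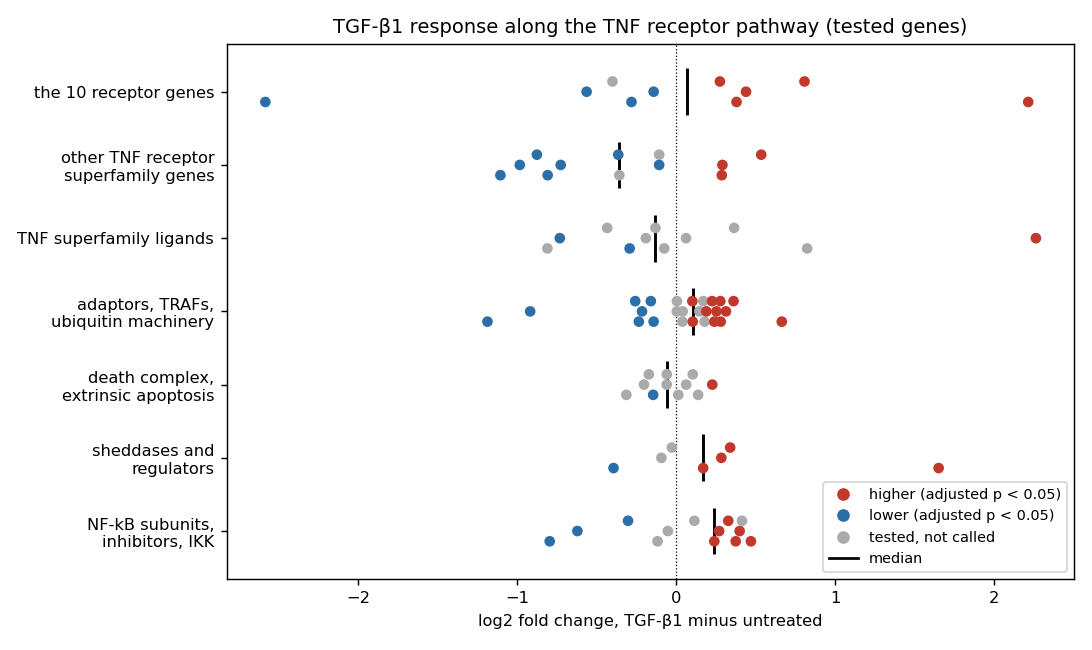
Points are tested genes of each list at their log2 fold change, TGF-β1 over untreated; red rose, blue fell, grey did not pass an adjusted p of 0.05, and the black bar is the list's median. TNFRSF11B and TNFSF15 lie furthest to the right and TNFRSF1B furthest to the left, and most genes of the death-inducing complex lie near 0 in grey.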

How the data were processed

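The authors deposited raw counts, whole numbers for each gene, and FPKM values. The submitters' processing notes name fastp, HISAT2 2.2.1 and hg38. No source used here names the counter, its strand setting or an annotation release. All 58735 gene IDs, positions and lengths matched GENCODE release 29, which gave the exons. In each table, 6 further per-sample columns matched no sample here and were not used. Within each library the deposited FPKM equalled counts over gene length and one library size (0.984 to 0.987 of the total with TGF-β1, 1.07 to 1.08 of it untreated), so FPKM holds no measurement beyond the counts.

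Counts were tested with edgeR 4.0.16 (TMM, filterByExpr with a minimum count of 10 and a minimum total of 15, robust quasi-likelihood test with 4 residual degrees of freedom, two-sided, Benjamini-Hochberg over 17215 genes), TGF-β1 minus untreated. SE is the absolute log2 fold change over the square root of F. CPM values use TMM-scaled library sizes. Alternatives were DESeq2 1.42.0, limma 3.58.1 on log2(FPKM + 1 or 0.1), other scalings and filters, the replicate block and each library left out. In simulated counts over 17215 genes (5 draws), the test recovered 44.0% of genes changed 1.25-fold, 64.8% at 1.5-fold and 78.0% at 2-fold, and 9.22% of its calls were false, above the nominal 5%. The simulation changed a far smaller share of genes than the 38.9% called in the data. Its rates therefore need not hold for the comparison reported.

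Named were the 10 receptor genes, NSUN2, NAT10, ACTA2, their ligands, up to 4 called genes of each pathway list by size with at least 1 CPM, and genes behind counts of 5 or fewer; other list genes named were chosen after their values were seen, and were then recomputed under the alternatives. The receptor genes and lists were chosen with earlier results of these data known. R was 4.3.3 and Python 3.11.15.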

Additional observations from a re-analysis of the deposited data

How the results depend on the processing

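The 9 receptor genes that were called kept their direction and their call under all 15 alternatives, with 5 rises throughout and 4 or 5 falls, the fifth being TNFRSF10A. TNFRSF10A passed with library totals alone (adjusted p = 0.0109), with at least 1 CPM in 3 libraries (0.0485) and with limma on FPKM values of at least 0.5 on average (0.0275 at a pseudocount of 1 and 0.0261 at 0.1). On the log2(FPKM + 1) scale, the values of TNFRSF1B and TNFRSF11B were smaller, -1.92 and 1.59. Over all genes, 3471 rose and 3226 fell; library totals alone gave 2019 and 5354, and limma on log2(FPKM + 1) with no filter gave 1881 falls. NAT10, not called in the main test (0.03), was at -0.091 with library totals alone and at -0.016 to 0.084 with a library left out. Other genes not called changed sign: TRADD (0.0033) was at -0.12 with library totals alone, at -0.0022 with at least 1 CPM in 3 libraries and at -0.027 to 0.052 with a library left out, ADAM17 at -0.064 to 0.0045 and TNFRSF8 at -0.33 to 0.12 with a library left out. Of 180 list counts under alternatives, 17 moved by over 1.5 times, among them the falls of the other superfamily genes, 4 with limma on FPKM. There, LTBR lost its call. TNFRSF13C and TNFRSF14 lay below a mean of 0.5 FPKM, so they were not tested with that filter, and they were not called without it. What moved the other counts was not tested. Weak calls were also lost with other tools or filters. TNFRSF25 and LTBR lost theirs with DESeq2, with no low-count filter and in all 3 limma settings. CFLAR lost its call in the 3 limma settings. TNFRSF13C lost its call with DESeq2 and with no low-count filter (edgeR adjusted p = 0.0586). TNFSF12 and TNFRSF13C lost theirs with limma and no filter. With the replicate number as a block (replicate block), 3431 genes rose and 3182 fell, with 5 rises and 4 falls among the receptor genes; the call for TNFRSF25 missed narrowly (adjusted p = 0.0510) and no call among the 10 receptor genes changed. Deviations from the group mean correlated at -0.00909 to 0.0111 between same-numbered libraries of the groups. Between differently numbered libraries they correlated at -0.0222 to 0.0264. With 3 libraries per group and counting noise in each gene, these values cannot decide whether the numbers pair libraries. Depth limits the precision of the low genes, such as TNFRSF10A with 102 to 164 counts per library and TNFSF10 with 8 to 31.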

Other observations

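Receptors of this family can be shed from the cell surface, and genes of that step were also measured. Of 7 genes for sheddases and their regulators, 4 rose (TIMP3, FRMD8, RHBDF2 and ADAM10) and RHBDF1 fell, while ADAM17 and ERAP1 were tested and not called (71.4% called, against 38.9% of all tested genes). The median absolute log2 fold change was 0.28 in this list and 0.22 over all tested genes. TIMP3 encodes a matrix-bound inhibitor of ADAM17, the main sheddase of TNF and its receptors. Its level was 168.5, 146.9 and 147.0 CPM with TGF-β1 and 49.6, 46.9 and 50.9 CPM untreated, a log2 fold change of 1.65 ± 0.05 (SE; edgeR adjusted p = 3.93e-26). FRMD8 and RHBDF2, which encode a partner of the iRhoms and iRhom2, rose by 0.34 ± 0.05 and 0.28 ± 0.05, and ADAM10 rose by 0.17 ± 0.03 (0.05 and not called with library totals alone, adjusted p = 0.259). RHBDF1, which encodes iRhom1, fell by 0.39 on the log2 scale (SE 0.06). Library totals alone gave 3 falls in this list, among them ERAP1 at -0.21 (edgeR adjusted p = 0.00219). ADAM17 had 1236, 1432 and 1304 counts with TGF-β1 and 1523, 1633 and 1427 counts untreated, a log2 fold change of -0.03 ± 0.06 (edgeR adjusted p = 0.751), and -0.15 with library totals alone (adjusted p = 0.0348).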
